A study of Mus musculus with 15 samples.

Results

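The comparison covers the RNA of mouse epiblast-like cells (EpiLCs) after 4 h of ERK induction against the same cells at the start of the induction, over all genes. The members are the 4 libraries labelled 4h and the 3 labelled 0h, 7 of the 15 libraries of the series, and 13451 of the 52636 genes of the table passed the filter on low counts and were tested. The cells are of the line CRAFR26, mouse embryonic stem cells that carry an inducible RAF kinase construct, taken through 2 passages of a formative-like state named RSC in the design text and then kept for 48 h in N2B27 medium with bFGF (12 ng/ml), Activin A (20 ng/ml) and XAV939 (1 µM). PD17, which inhibits FGF receptors, was given to all groups at 250 nM for 2 h, so the 0h cells are receptor-inhibited EpiLCs and not plain ones, and the 4h cells then received 4-hydroxytamoxifen (4OHT) at 250 nM for 4 h. Each group holds libraries of 2 clones, clone 4 and clone 8. At 4h each clone has 2 libraries (numbered 1 and 2), while at 0h clone 4 has 1 and clone 8 has 2, because the authors discarded 1 sample of 0h in their quality control. No group had 4OHT without the construct, so effects of 4OHT and of the kinase cannot be told apart. The 4h cells were also taken 4 h later after the start of PD17 than the 0h cells, and no group was kept that long without 4OHT. Effects of this time and of the induction can therefore not be told apart either. The labels do not say whether libraries of a clone came from separate cultures, so p-values measure the spread between these libraries, which may be technical.

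ERK is the last kinase of a chain in which RAS activates RAF, RAF activates MEK and MEK activates ERK. Active ERK phosphorylates transcription factors such as ETS proteins, immediate early genes are transcribed within minutes, and their products together with feedback inhibitors (Sprouty and Spred proteins, dual-specificity phosphatases) shape the later response. In mouse pluripotent cells, FGF signalling through ERK is known for moving cells out of the naive state towards the formative state that EpiLCs represent, which is marked by Fgf5, Otx2 and Dnmt3b.

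The cells carried the markers of their label at 0h. Pou5f1 (Oct4), the core pluripotency factor, stood at 151 to 184 CPM (each library's counts over its TMM-scaled total), the de novo DNA methyltransferase gene Dnmt3b at 863 to 1061 CPM, and the formative markers Fgf5 at 20.1 to 28.9 and Otx2 at 8.91 to 14.5 CPM. Markers of other cell types or states that these cultures could hold were present as well. Summed at 0h over all members of each list, tested or not, neuroectoderm markers reached 96.6 to 103.6 CPM, most of it Nes. Primitive endoderm markers reached 164 to 170.0 CPM, most of it the laminin gene Lamb1, and trophoblast markers 21.1 to 29.0 CPM. Fibroblast markers reached 110.4 to 139 CPM, germ cell markers 46.9 to 60.7 CPM and naive pluripotency markers 305 to 323 CPM. Of the 2-cell-like markers, the sum was 1.78 to 4.12 CPM. In bulk RNA, fewer cells of a type and less RNA per cell cannot be told apart.

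The 4h libraries were shallow. Their total counts ran from 1552022 (clone 4, library 1) to 6658950, below each of the 0h totals (9226145 to 13004556), and a gene with 3 counts, the floor used here, corresponds to 0.683 to 1.83 CPM at 4h and to 0.162 to 0.363 CPM at 0h. The 0h level of 2783 tested genes (20.7%) lay under the floor of the shallowest 4h library. Mitochondrial genes took 7.21 to 12.4% of the counts at 4h and 2.67 to 3.84% at 0h, so depth and this share move with the group and cannot be told apart from it. Ribosomal RNA genes, mitochondrial ones included, took 21.2, 20.3 and 40.6% at 0h and 30.0, 44.1, 40.2 and 40.8% at 4h. The part of this uneven share in the results was not tested.

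After 4 h, 5300 of the 13451 tested genes had changed (39.4%; edgeR quasi-likelihood test, Benjamini-Hochberg adjusted p under 0.05). Of these, 2755 rose (20.5% of tested genes) and 2545 fell (18.9%). At least 2-fold changes numbered 1995 (14.8%), with 1090 higher (8.1%) and 905 lower (6.73%). In 4885 genes (36.3%) the 4h and 0h libraries did not overlap. The median log2 fold change of all tested genes was 0.03, and it was -0.73 when libraries were scaled by total count, under which 476 genes were called higher and 6220 lower. Every direction below is therefore relative to the bulk of the genes. Counts of list members called below stand against the shares of 20.5% higher and 18.9% lower, and a count near them is no result about the list.

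The floor limits how far a fall can be followed. For the median gene at 1 to 2 CPM at 0h, a fall of 5.90-fold would leave 3 counts over the pooled 4h libraries. At 2 to 5 CPM at 0h 17.9% of genes were called higher and 15.2% lower, at 5 to 20 CPM 20.8% and 20.8%, and above 100 CPM 22.5% and 32.8%. Genes under 1 CPM at 0h lay below the filter's level there and needed other groups to pass it, so their calls (drawn in the plot of calls by class) are no measure of response. Among the genes named below this holds for Spry4, Egr3, Nab2, Phlda1, Rrad, Halr1, Kcna1, Ccn4 and others, whose levels are given for description. Of the genes called lower, 203 had 3 counts or fewer in every 4h library, and 7 of these had none. The other end was thin too, as 43 genes called higher had 3 counts or fewer in every 0h library.

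Gene classes moved unevenly. Over all tested genes 20.5% were called higher and 18.9% lower. Long intergenic noncoding RNAs (lincRNAs) were called higher in 53 of 213 cases (24.9%), near the share of all genes, and lower in only 9 (4.23%). Small nucleolar RNAs were called lower in 15 of 55 cases (27.3%) and higher in none. Processed pseudogenes were called lower in 41 of 190 cases (21.6%), near the share of all genes, and higher in only 17 (8.95%). Among protein-coding genes, the class with the shortest transcripts (of 5 equal classes) was called higher in 13.1% and lower in 29.3%, and the class with the longest in 30.3% and 15.4%. By GC content the lowest class gave 28.5% higher and 10.6% lower, and the highest class 14.99% and 26.4%. The trend was present in each library: the median log2 ratio to the 0h mean was 0.21 to 0.45 higher in the longest than in the shortest class at 4h, and -0.15 to 0.09 at 0h. For GC content the same difference was -0.44 to -0.18 at 4h and -0.07 to 0.15 at 0h. Length and GC content are given beside the gene lists they touch, and their part in those results was not tested.

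**Figure D1:**
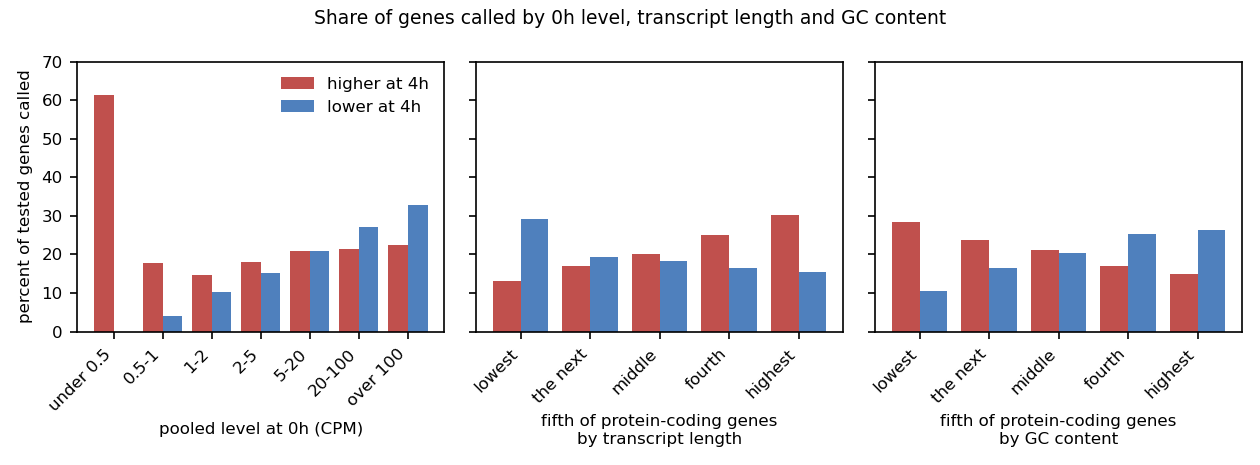
Share of tested genes called higher (red) and lower (blue) at 4h against 0h, in percent, by level at 0h in CPM and by 5 equal classes of transcript length and GC content of protein-coding genes. Genes under 1 CPM at 0h needed other groups to pass the filter, so their shares are no measure of response. The shortest class has 29.3% called lower against 15.4% in the longest.

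No sequence match was tested against the changes, and the promoters of a few genes named below are shown for description only. They are read from RefSeq promoters of the build GRCm38.p6 (windows from 250 bases before to 50 after the start site), in which 9890 tested genes were matched by symbol. Egr2 is an immediate early transcription factor and Dusp5 a phosphatase of ERK, and both rose. Loricrin (Lor) and Krtdap are genes of the cornified epidermis and Plaur encodes the urokinase receptor, and all had higher levels at 4h in clone 4 than in clone 8. Psmd2 and Psmd4 encode subunits of the proteasome, which fell. Capitals mark CArG boxes (bound by SRF) in Dusp5, a CArG box and ETS cores (CCGGAA) in Egr2, AP-1 sites (TGANTCA) in Lor, Krtdap and Plaur, and ETS cores in Psmd2 and Psmd4, on either strand. The windows are chr19:53529045-53529144 (+) for Dusp5, chr10:67537426-67537545 (+) for Egr2, chr3:92083143-92083242 (-) for Lor, chr7:30787805-30787904 (+) for Krtdap, chr7:24462383-24462482 (+) for Plaur, chr16:20651552-20651651 (+) for Psmd2 and chr3:95042655-95042754 (-) for Psmd4, each written 5′ to 3′ on the strand of its gene.
Dusp5: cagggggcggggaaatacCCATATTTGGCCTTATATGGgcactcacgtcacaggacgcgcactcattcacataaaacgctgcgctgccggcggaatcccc
Egr2: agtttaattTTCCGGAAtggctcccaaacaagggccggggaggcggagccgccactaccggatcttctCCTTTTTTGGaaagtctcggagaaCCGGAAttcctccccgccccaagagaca
Lor: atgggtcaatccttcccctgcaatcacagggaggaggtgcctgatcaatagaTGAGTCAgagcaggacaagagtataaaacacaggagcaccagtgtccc
Krtdap: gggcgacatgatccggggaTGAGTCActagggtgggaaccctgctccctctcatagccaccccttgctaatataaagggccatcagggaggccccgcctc
Plaur: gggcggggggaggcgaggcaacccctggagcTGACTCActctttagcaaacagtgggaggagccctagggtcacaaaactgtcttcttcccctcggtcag
Psmd2: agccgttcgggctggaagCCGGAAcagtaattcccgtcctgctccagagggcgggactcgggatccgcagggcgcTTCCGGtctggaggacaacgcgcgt
Psmd4: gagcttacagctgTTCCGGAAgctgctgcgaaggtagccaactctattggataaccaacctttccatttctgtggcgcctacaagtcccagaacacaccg

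Among the 300-base promoters of tested genes, 4.80% held TGANTCA, against 15.1% (40 of 265) of the promoters of genes called higher at least 4-fold and 4.26% of those called lower at least 4-fold. Over all genes called higher the share was 5.52%. CArG boxes, searched by the standard consensus, lay in 1.32% of promoters of tested genes and in 5 of 24 promoters (20.8%) of the immediate early list, which come from 2 genes with alternative starts. The ETS core CCGGAA lay in 27.0% of promoters of tested genes, 24.0% of those called higher and 26.5% of those called lower. Among genes changed at least 4-fold it was rarer in both directions, at 11.3% of promoters for higher and 8.51% for lower. Over all promoters of the set, of tested genes or not, 14.9% held CCGGAA and 7.81% held TGANTCA. Levels were not matched between these sets, and their part in the shares was not tested. The share of CCGGAA was 55.6% (15 of 27) in promoters of proteasome subunits and 46.8% (36 of 77) in those of ribosomal proteins. TGACGTCA, CACGTG, ATGCAAAT and GCGTGGGCG were searched in the same way on both strands. The sets differ in GC content, with a median of 61.3% over promoters of tested genes, 56.7% for proteasome subunits and 56.7% for genes higher at least 4-fold. A match is a description of these letters and no evidence of binding.

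ERK feedback inhibitors rose. Of 17 genes, all of them tested, 12 rose, 1 fell and 4 did not pass, with a median log2 fold change of 1.05. The Sprouty and Spred genes, whose products damp signalling between the receptor and RAF, all rose. Spry4 stood at 94.1 and 105 CPM in the 4h libraries of clone 4 and at 38.5 and 43.7 CPM in those of clone 8, against 0.972 CPM at 0h in clone 4 and 0.869 and 0.727 CPM in clone 8. Every 4h library was far above every 0h library, and the log2 fold change was 6.10 (SE 0.18, adjusted p = 3.33e-16). Being under 1 CPM at 0h, Spry4 needed other groups to pass the filter, so its call is no measure of response. Spry2 (chr14:105891947-105896819) had 57.4, 52.8, 37.3 and 36.2 CPM at 4h against 5.07, 7.09 and 9.93 CPM at 0h (log2 fold change 2.61, SE 0.21, adjusted p = 2.74e-08). The smaller rises in log2 fold change were 1.05 in Spry1, 1.48 in Spred1, 1.05 in Spred2 and 1.81 in Spred3.

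The dual-specificity phosphatases, which remove phosphate from ERK and its relatives, did not move as a block. Dusp6, the cytoplasmic phosphatase of ERK (chr10:99263231-99267489), stood at 81.9 and 86.9 CPM in clone 4 and 29.1 and 31.7 CPM in clone 8 at 4h, against 2.27 CPM in clone 4 and 3.54 and 4.24 CPM in clone 8 at 0h. The 4h libraries all lay above, with a log2 fold change of 3.88 (SE 0.38, adjusted p = 1.67e-05). Dusp5, the nuclear phosphatase, had 70.3 and 71.6 CPM in clone 4 and 8.65 and 7.16 CPM in clone 8 at 4h against 3.14 to 5.02 CPM at 0h (2.65, SE 0.51, adjusted p = 0.00198). Dusp4 rose as well (1.99), with a log2 change in clone 8 minus that in clone 4 of -2.59. Dusp2 (0.57) and Dusp7 (-0.34) did not pass, and Dusp8 fell. Dusp8 is at the floor at 4h: its 3 empty libraries and 1 count against 38 counts at 0h give a pooled level 11.6-fold lower, with a counting interval of 1.96 to 470-fold. Among the other feedback genes, Il17rd (Sef, 1.04), Rasa2 (0.75) and Lrig1 (0.49) rose, and Errfi1 (0.16) did not pass.

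**Figure D2:**
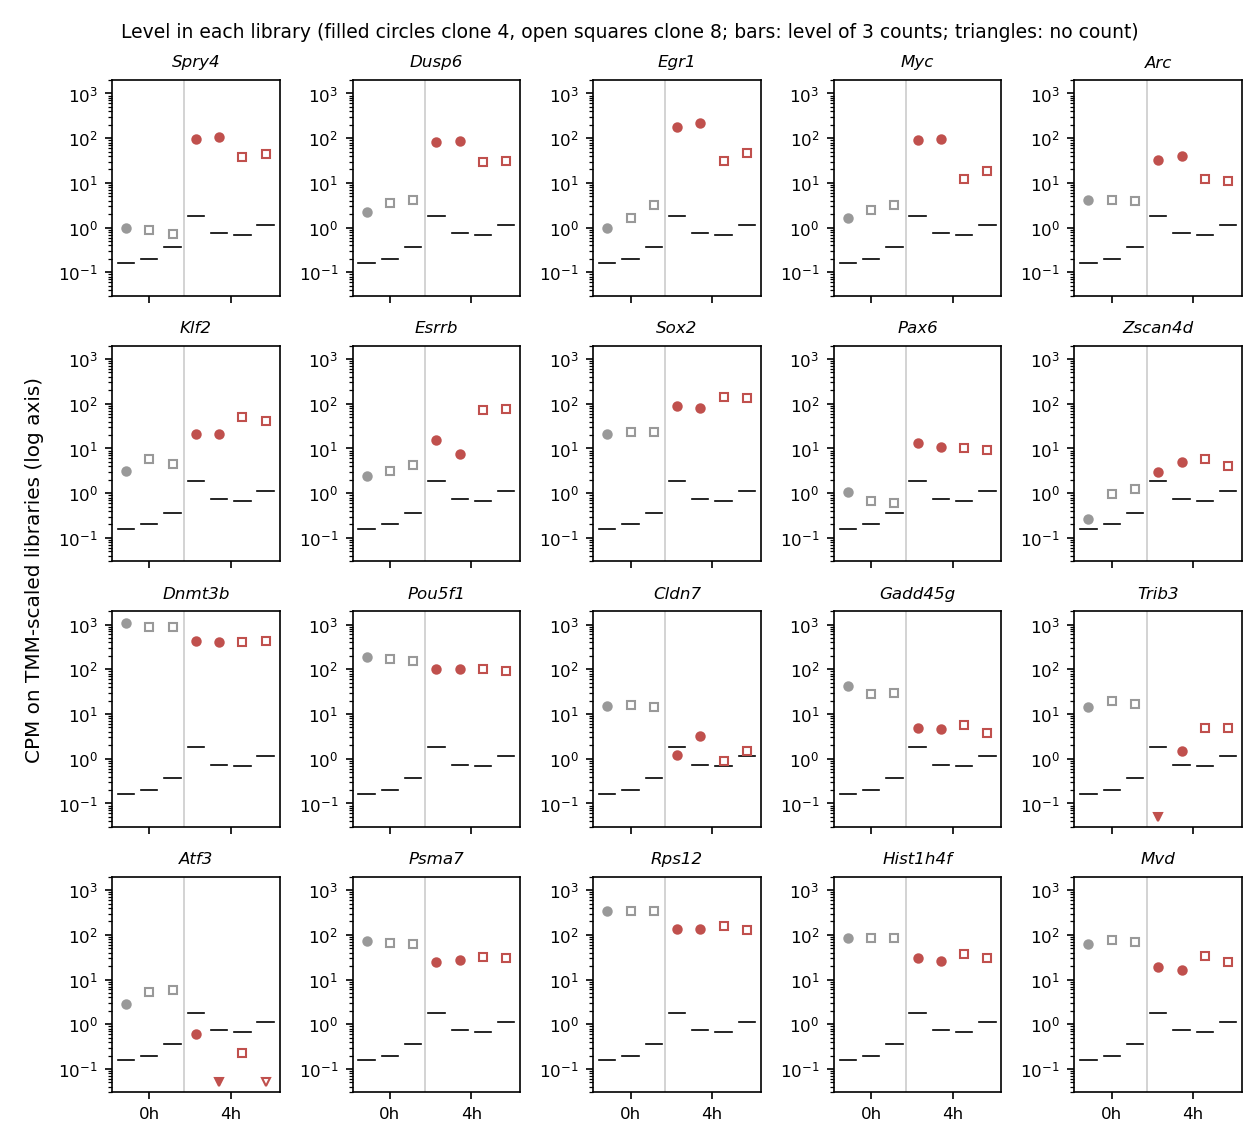
CPM of single genes (log axis) in each of the 3 libraries of 0h and the 4 of 4h, with circles for clone 4, squares for clone 8, triangles for libraries with no count (drawn at the foot of the axis) and bars for the level of 3 counts. Spry4 and Dusp6 lie above all 0h libraries in both clones, Egr1 and Myc are higher in clone 4 than in clone 8 at 4h, Esrrb is higher in clone 8, and Atf3 lies at or under the level of 3 counts in all 4 libraries of 4h.

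Of the immediate early genes, 10 of 26 rose and 3 fell at 4 h (median 0.63), and the EGR genes led. Egr3, a zinc finger transcription factor (chr14:70077203-70082614), had 55.6 and 53.8 CPM in clone 4 and 2.96 and 2.64 CPM in clone 8 at 4h, and 1 count in all at 0h. All 4h libraries lay above the floor of the 0h libraries. The pooled level was 1078-fold higher, with a counting interval from 192 to 42722 that rests on that 1 count. Egr1 had 180.2 and 220.2 CPM in clone 4 and 31.2 and 45.6 CPM in clone 8, against 0.972 to 3.27 CPM at 0h (log2 fold change 5.32, SE 0.68, adjusted p = 0.000153). Nab2, which encodes a corepressor that binds EGR proteins and belongs to no list, had 75.1, 84.4, 12.1 and 14.3 CPM at 4h against 0.594 to 0.802 CPM at 0h (5.46, SE 0.57, adjusted p = 3.64e-05). Egr3 and Nab2 lay under 1 CPM at 0h and needed other groups to pass the filter, so their calls are no measure of response. Egr2 (2.55), Fos (2.00), Junb (2.05), Arc (2.15), Nr4a1 (0.75), Klf10 (1.17) and the RNA-binding protein gene Zfp36l1 (1.54) were also called higher, of which Fos and Junb overlapped between the groups, since 1 or both clone 8 libraries lay within the 0h range. The log2 change in clone 8 minus that in clone 4 was -3.25 in Egr2, -1.67 in Arc and -1.84 in Klf10. The AP-1 genes Jun (-0.16) and Fosb (-0.02) and the early gene Ier2 (0.14) did not pass.

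The 3 immediate early genes that fell were Atf3, Btg2 and Mcl1. Atf3, a stress-responsive member of the AP-1 family (chr1:191170296-191218039), had 2.86 CPM in clone 4 and 5.15 and 5.94 CPM in clone 8 at 0h, and 0.611, 0, 0.228 and 0 CPM at 4h, which is 2 counts in all. No 4h library reached the lowest 0h library, and the pooled level was 27.3-fold lower with a counting interval of 7.45 to 227-fold. Btg2, an antiproliferative gene, fell by 0.64 on the log2 scale with overlap between the groups, and Mcl1, an inhibitor of apoptosis, fell by 0.81 without overlap. Without the 0h library of clone 4, or without library 2 of clone 4 at 4h, 6 immediate early genes rose in place of 10. The list's median over single 4h libraries was 0.93 and 0.79 in clone 4 and 0.25 and 0.08 in clone 8, and relative to all tested genes it was 0.11 in a fit of the 0h and 4h libraries alone.

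Transcription factors linked to ERK rose in 11 of 17 cases, with none lower (median 0.83, and 0.52 relative to all tested genes over members with a mean of at least 5 CPM). Myc (chr15:61985391-61990374), the growth-promoting factor, had 91.0 and 98.2 CPM in clone 4 and 12.5 and 18.8 CPM in clone 8 at 4h against 1.62, 2.54 and 3.15 CPM at 0h. All 4h libraries were higher, with a log2 fold change of 3.96 (SE 0.62, adjusted p = 0.000598). Erf, a repressor of the ETS family that ERK expels from the nucleus (chr7:25242561-25250761), was even across the clones, at 76.4, 70.1, 60.1 and 66.0 CPM against 18.5 to 20.0 CPM at 0h (1.77, SE 0.14, adjusted p = 6.08e-09). Other genes of the ETS family had smaller changes: Etv1 1.40, Etv5 0.55, Ets2 0.83, Elk1 0.49 and Elk3 0.97 were called higher, and Etv4 (-0.22) did not pass. Fosl1 (Fra-1, 1.90), Maff (1.88), the repressor Bhlhe40 (1.97) and Cic (Capicua, 0.29) were called higher too. The log2 change in clone 8 minus that in clone 4 was -3.40 in Fosl1, -2.34 in Maff and -2.62 in Bhlhe40, so these rises were mainly those of clone 4.

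Of the other ERK output genes, 11 of 21 tested rose and 5 fell, out of 23 on the list (median 0.88). That median is not stable: relative to all tested genes it was 0.42 without the 0h library of clone 4 and -0.37 over members with a mean of at least 5 CPM. Over single 4h libraries, on the log2(CPM + 0.5) scale, it was 0.15, -0.16, 0.26 and 0.12. Epha2, an Eph receptor, had 92.9, 92.3, 130.2 and 125 CPM at 4h against 8.96, 16.0 and 17.2 CPM at 0h, with no overlap (2.98, SE 0.26, adjusted p = 1.98e-06). Phlda1, a PH-domain protein gene, had 20.2, 29.4, 2.28 and 1.51 CPM against 0.324 to 0.606 CPM (4.21, SE 0.69), and Rrad, a small GTPase gene, 27.5, 28.4, 2.96 and 3.02 CPM against 0.216 to 0.485 CPM (5.05, SE 0.66). In both genes the clone 4 libraries lay far above those of clone 8 at 4h, and all 4h libraries above 0h. Phlda1 and Rrad were under 1 CPM at 0h and needed other groups to pass the filter, so their calls are no measure of response. Hbegf, an EGF receptor ligand (3.46), the urokinase receptor gene Plaur (3.20), the secretory peptide gene Vgf (2.37) and Trib1 (0.88) rose as well. The log2 change in clone 8 minus that in clone 4 was -4.91 in Plaur, -3.83 in Vgf and -1.39 in Trib1, so these rises were mainly those of clone 4. The falls were in Phlda3 (-1.61), the kinase gene Plk2 (-1.15), the cyclin gene Ccnd1 (-0.34), the adaptor gene Shc1 (-0.34) and Cops9, a subunit gene of the COP9 signalosome.

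Sprr1a, Krtdap, Lor and Ivl, genes of the cornified epidermis, were picked after their values were seen and form no list. With few or no counts at 0h they could pass the filter only through groups where they are high. Sprr1a, a cornified envelope precursor, had no count at 0h and 6.11 and 12.3 CPM in clone 4 and 0.228 and 0 CPM in clone 8 at 4h, at least 66.6-fold higher over the pooled libraries. Krtdap was at least 25.1-fold higher (3.05 and 3.95 CPM in clone 4, 0.228 and 0.377 CPM in clone 8, no count at 0h), and Lor had 17.1, 13.3, 1.14 and 1.51 CPM against 0.0668 to 0.540 CPM at 0h (4.50, SE 0.64, adjusted p = 0.000149). The AP-1 sites printed above lie in the promoters of Lor, Krtdap and Plaur. Ivl (involucrin) rested on 6 counts at 4h, none in clone 8, and 1 at 0h, a pooled level 19.7-fold higher with a counting interval of 2.39 to 905-fold. Lor did not differ significantly between the clones in its change (adjusted p = 0.501).

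The kinase chain itself changed by less. Of 24 genes of the RAS, RAF, MEK and ERK cascade, 11 rose and 4 fell (median 0.33), and 2 fell without the 0h library of clone 4. The ERK gene Mapk3 (ERK1, 0.71) was higher, and Map2k2 (MEK2) was lower by 0.42. Braf (0.68), Sos1 (0.67), Sos2 (0.87), the kinase gene Rps6ka3 (RSK2, 1.30), Gab1 (1.01), Nf1 (0.80) and Rasa1 (0.61) rose, and Hras (-0.87) and Ptpn11 (SHP2, -0.68) fell.

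**Figure D3:**
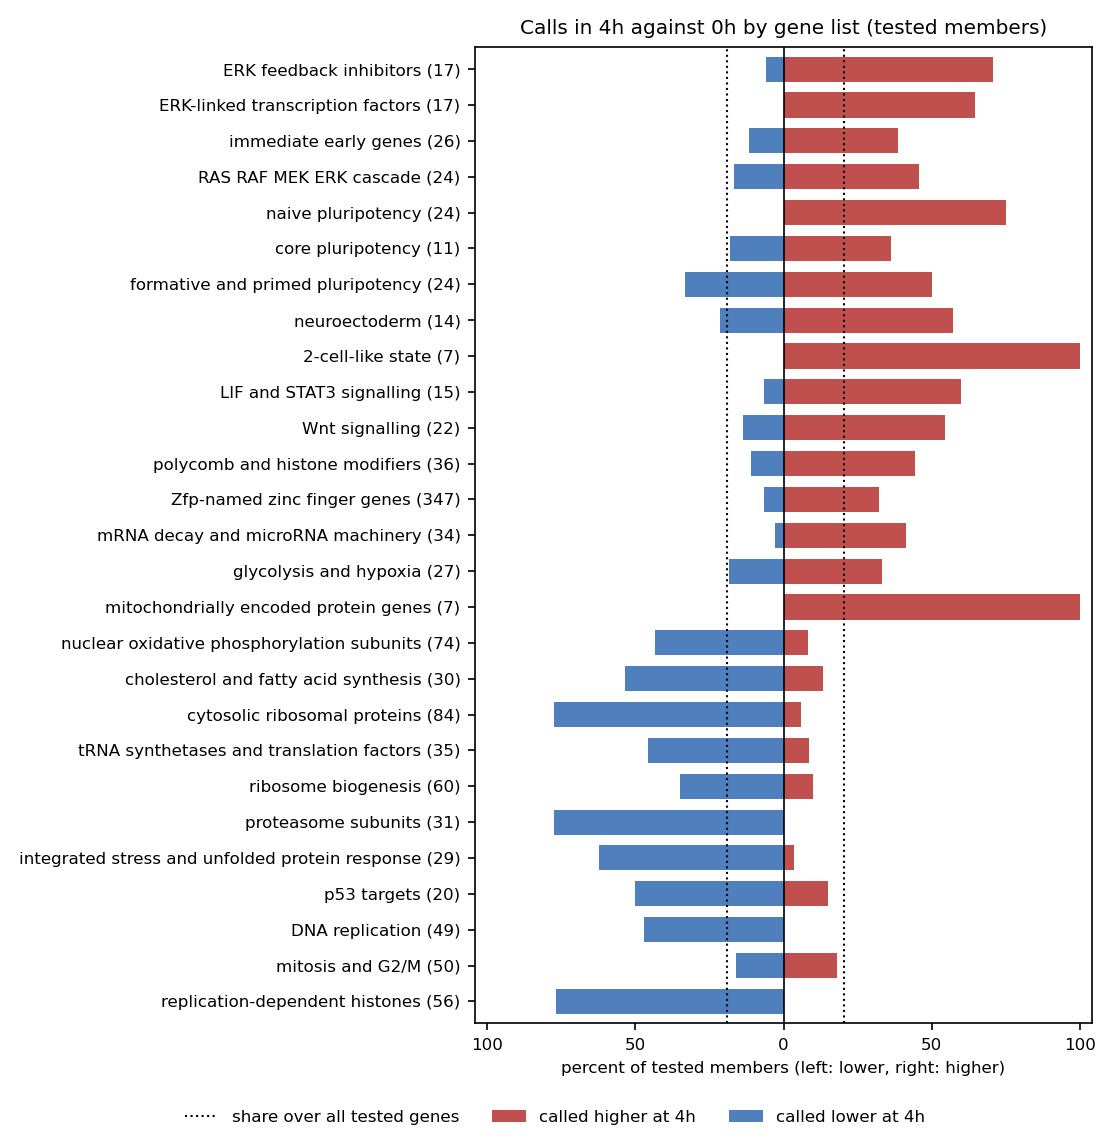
Members of each gene list called higher (to the right) and lower (to the left) at 4h against 0h, as percent of the tested members, whose number stands in brackets; over all tested genes the shares are 20.5% and 18.9%. Naive pluripotency (18 of 24) and ERK feedback inhibitors (12 of 17) lean to the right, and proteasome subunits (24 of 31), ribosomal proteins (65 of 84) and histones (43 of 56) to the left. Members under 1 CPM at 0h needed other groups to pass the filter.

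Naive pluripotency genes were the list of the pluripotency groups with the largest share of rises. Of 25 genes 24 were tested, 18 rose and none fell, with a median of 2.32. Members under 1 CPM at 0h, such as Prdm14, needed other groups to pass the filter, so their rises are no measure of response. Without library 1 or library 2 of clone 8 at 4h, 22 members were tested. Esrrb, a nuclear receptor of the naive network (chr12:86361117-86521628), stood at 15.3 and 7.41 CPM in clone 4 and at 72.8 and 76.1 CPM in clone 8 at 4h, against 2.43, 3.21 and 4.24 CPM at 0h. All 4h libraries lay above, most so in clone 8, and the log2 fold change was 3.57 (SE 0.58, adjusted p = 0.000575). Klf2, a Kruppel-like factor of the naive network, had 21.4, 20.7, 50.5 and 41.1 CPM against 3.19, 5.68 and 4.48 CPM (2.97, SE 0.20, adjusted p = 5.91e-10). Nanog separated by clone: clone 4 held 14.1 and 19.5 CPM at 4h and 14.2 CPM at 0h, while clone 8 held 88.3 and 79.5 CPM against 14.0 and 14.4 CPM. Its groups overlapped, at a log2 fold change of 1.71 (adjusted p = 0.0101), and the change was 2.30 larger in clone 8 (log2, adjusted p = 1.99e-05). Nanog was not called when only the 0h and 4h libraries were fitted.

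Of the further members, Prdm14, a repressor of FGF signalling genes (5.08), Nr5a2 (4.19), Tcl1 (4.09), Jam2 (3.17), Klf5 (2.97), Pecam1 (2.77), Nr0b1 (2.62), Tbx3 (2.48), Dppa3 (2.30), Dppa2 (1.90), Zfp42 (Rex1, 1.53) and Tfcp2l1 (1.45) were called higher. Several rest on few counts at 0h: Prdm14 had 3 counts in all and a pooled level 42.6-fold higher (counting interval 13.5 to 216-fold). Klf4, at 1.00 to 2.91 CPM at 0h and 1.83 to 3.02 CPM at 4h, did not pass (0.69, SE 0.37, adjusted p = 0.145). By library the list's median was 1.04 and 1.29 in clone 4 and 2.52 and 2.22 in clone 8, and its summed level was 305 to 323 CPM at 0h, 418 and 459 CPM in clone 4 and 848 and 799.9 CPM in clone 8. Klf5 was higher in clone 4 at 4h than in clone 8, with 73.3 and 85.9 CPM in clone 4 and 27.3 and 36.9 CPM in clone 8.

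Core pluripotency factors split. Pou5f1 fell from 184, 168 and 151 CPM at 0h to 100.2, 102, 102 and 90.8 CPM at 4h, with no overlap (log2 fold change -0.77, SE 0.12, adjusted p = 3.09e-05). Sox2, its partner (chr3:34650405-34652461), rose from 20.8, 23.5 and 22.8 CPM to 89.8, 81.0, 141 and 133 CPM (2.34, SE 0.13, adjusted p = 4.18e-11). The groups were fully separate in both genes and in opposite directions. Trim71 (0.93) and Rif1 (0.67) rose, and Lin28a fell by 0.32, so that 4 of 11 rose and 2 fell.

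Formative and primed markers moved both ways, with 12 of 24 higher and 8 lower. Fgf5, the marker most used for EpiLCs (chr5:98254184-98277030), fell from 28.9, 20.1 and 20.5 CPM to 9.77, 15.1, 6.37 and 4.90 CPM (-1.44, SE 0.20, adjusted p = 1.41e-05). Dnmt3b fell from 1061, 863 and 882 CPM to 419.7, 398, 408 and 439.5 CPM (-1.18, SE 0.08, adjusted p = 5.42e-10). In both, each 4h library lay below each 0h library. Dnmt3a (-0.53), Sox3 (-1.29), Pou3f1 (Oct6, -0.34), Car14 (-1.21) and Nes (-1.47) fell too. Otx2, a transcription factor of the formative state, rose from 8.91 to 14.5 CPM up to 16.5 to 35.8 CPM (1.13, SE 0.15, adjusted p = 3.98e-06), and Foxd3 (1.86), Fgf8 (1.90), Lef1 (1.09) and Cdh2 (1.39) rose. The log2 change of Cdh2 in clone 8 minus that in clone 4 was -2.54, so its rise was mainly that of clone 4.

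In the DNA methylation list the calls were even, with 4 of 14 higher and 4 lower. The falls were 2 without the 0h library of clone 4 or library 1 of clone 4 at 4h, and the rises 2 without library 2 of clone 8 at 0h. Tet2, a 5-methylcytosine dioxygenase gene, had 44.0, 50.4, 97.4 and 107 CPM at 4h against 9.34 to 10.4 CPM at 0h (2.92, SE 0.21, adjusted p = 9.86e-09). Dnmt3l, a cofactor of the de novo enzymes, was higher (0.82) while the enzymes Dnmt3a and Dnmt3b were lower. Zfp57, a zinc finger protein that keeps methylation at imprinted loci, rose from 7.34, 9.89 and 10.1 CPM to 62.9, 61.0, 78.8 and 79.5 CPM (2.97, SE 0.17, adjusted p = 4.18e-11).

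Genes of LIF and STAT3 signalling, a pathway that sustains naive cells, rose in 9 of 15 cases and fell in 1 (median 1.09). The receptor genes Lifr (1.90) and Il6st (gp130, 1.39) and the kinase genes Jak1 (1.18) and Jak2 (2.12) were higher. The log2 change in clone 8 minus that in clone 4 was -1.46 in Jak1 and -2.19 in Jak2. The target genes were mixed: Pim1 (1.83) and Ifitm1 (2.95) rose, Cish fell to 4 counts in all at 4h (pooled level 3.74-fold lower, counting interval 1.37 to 14.3-fold), and Stat3 (0.17) and Socs3 (0.34) did not pass. Lifr overlapped between the groups: clone 4 at 4h (17.1 and 14.3 CPM) lay near clone 8 at 0h (12.2 and 16.1 CPM).

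**Figure D4:**
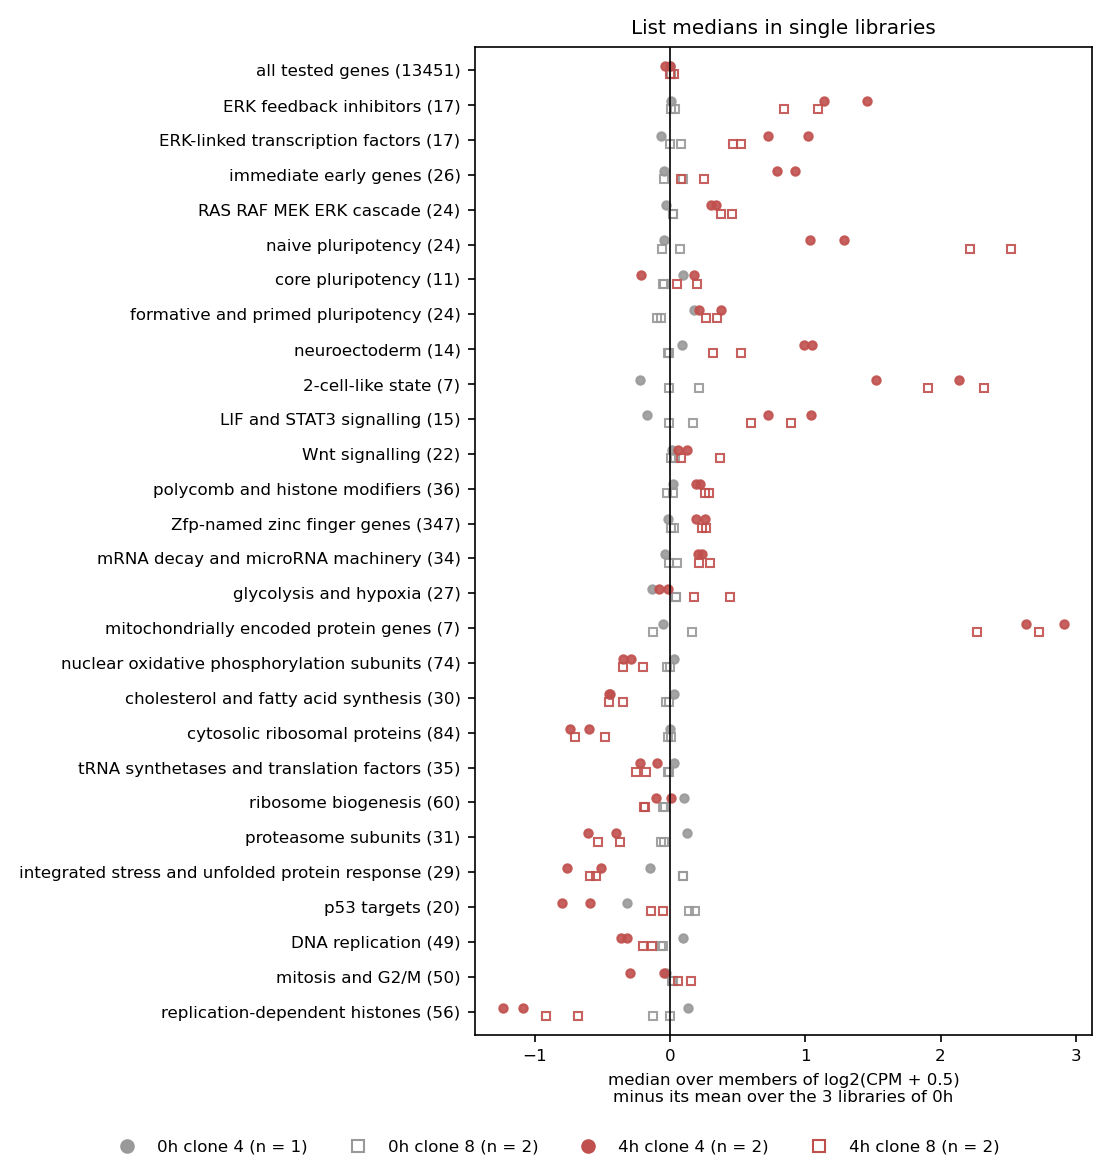
Median over the tested members of each list (number in brackets) of log2(CPM + 0.5) in a library minus the mean of the 3 libraries of 0h, for 0h (grey) and 4h (red), clone 4 as filled circles and clone 8 as open squares. All 4 libraries of 4h lie at or above 0.84 for ERK feedback inhibitors and at or below -0.48 for ribosomal proteins, while immediate early genes lie at 0.93 and 0.79 in clone 4 and 0.25 and 0.08 in clone 8.

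Markers of other cell types moved in both directions, and their part in the other results was not tested. Neuroectoderm markers rose in 8 of 14 tested cases (18 on the list) and fell in 3, with a summed level of 99.5 to 133 CPM at 4h against 96.6 to 103.6 CPM at 0h. The early neural factors Pax6 and Sox1 rose: Pax6 from 0.606 to 1.08 CPM to 9.05 to 13.4 CPM (3.69, SE 0.29, adjusted p = 4.01e-09) and Sox1 from 1.30 to 4.24 CPM to 24.4 to 40.1 CPM (3.56, SE 0.29, adjusted p = 9.86e-09). Meis1 (3.64) and Meis2 (2.88) rose, and the neuronal cytoskeleton genes Tubb3 (-0.50) and Map2 (-1.23) fell, as did Nes. Mesendoderm markers rose in 3 of 13 tested cases and fell in 1, with Eomes (1.56), Fgf8 and Hhex (1.67) higher and Nodal lower, and 11 of the 24 on the list were not tested. The 23.1% called higher was near the 20.5% of all tested genes, and the 7.69% called lower was under their 18.9%.

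Primitive endoderm markers rose in 2 of 9 tested cases and fell in 5, among them the basement membrane genes Col4a1 (-1.51), Col4a2 (-1.19) and Lama1 (-1.16), while Sparc rose (0.56) and Gata4 (0.49) did not pass. Without library 2 of clone 4 at 4h, 1 gene rose and 4 fell. Their summed level was 162 to 167 CPM in clone 4 at 4h and 103 to 115 CPM in clone 8, against 164 to 170.0 CPM at 0h. Trophoblast markers rose in 3 of 6 tested cases, with Gata3 (4.51) resting on 3 counts at 0h (pooled level 28.4-fold higher, counting interval 8.71 to 147-fold), Tfap2c (1.66) and Elf3 (0.93), and the keratin genes Krt8 and Krt18 did not pass. Gata3 needed other groups to pass the filter, so its rise is no measure of response. The summed level of the trophoblast list was 50.7 and 49.6 CPM in clone 4 and 15.7 and 15.5 CPM in clone 8 at 4h, against 21.1 to 29.0 CPM at 0h. Fibroblast markers split 2 to 2, Fn1 (1.84) and Vim (2.37) higher and Thy1 (-1.77) and Dcn (-2.50) lower, with 7 of 12 not tested, and the summed level was 425 to 520.5 CPM at 4h against 110.4 to 139 CPM at 0h.

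All 7 tested members of the 2-cell-like list rose (14 on the list, median 3.31). The sum over the whole list went from 1.78 to 4.12 CPM to 16.5 to 26.8 CPM. Zscan4d, a telomere-linked gene of that state, had 3.05, 4.94, 5.69 and 4.15 CPM at 4h against 0.270, 0.936 and 1.21 CPM at 0h (2.75, SE 0.37, adjusted p = 7.24e-06). Zscan4a (3.47), Zscan4b (3.87), Zscan4c (3.18) and Zscan4f (3.78) are near-identical copies whose reads could be split between them, so they are not independent. The other members were Usp17lc (2.35) and Tmem92 (3.31). These levels lie close to the floor of 0.683 to 1.83 CPM, and a member under it at 0h could only pass by rising.

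Of the germ cell list, 3 of 12 tested rose (25%) and 4 fell (33.3%), against 20.5% and 18.9% of all tested genes. The falls were 2 without the 0h library of clone 4 and 1 without library 2 of clone 8 at 4h. Dazl, a germ cell RNA-binding protein gene, rose from 2.16 to 3.21 CPM to 10.5 to 16.5 CPM (2.15, SE 0.27), and Hormad1 (2.58) and Sycp1 (0.99) rose. Tdrd1 fell by 1.18.

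Wnt signalling genes rose in 12 of 22 cases (23 on the list) and fell in 3. Tcf7l2, a nuclear effector, had 44.0, 47.1, 17.8 and 18.8 CPM at 4h against 6.86, 5.55 and 7.87 CPM at 0h, all above (2.11, SE 0.27, adjusted p = 1.35e-05). Lef1 rose (1.09), and the secreted inhibitors Notum (3.04) and Dkk1 (1.99) and the receptor gene Lgr5 (3.01) were called higher with overlap between the groups. Lgr5 was high in clone 4 alone at 4h (9.77 and 11.8 CPM against 0.228 and 0.754 CPM in clone 8), and its change differed between the clones. Notum had 5.69 and 6.79 CPM in clone 8 and 1.22 and 0.247 CPM in clone 4, a difference between clones that did not pass (adjusted p = 0.118). The co-receptor gene Lrp5 fell by 0.97. XAV939, present in all groups, is an inhibitor of this pathway.

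In BMP signalling 6 of 15 rose and 1 fell. The target genes Id2 (2.44), Id1 (1.79) and Smad7 (0.95) and the ligand gene Bmp4 (1.77) were higher, and Bambi, a decoy receptor, was lower (-1.97). In Nodal and Activin signalling 5 of 18 rose (27.8%) and 4 fell (22.2%), against 20.5% and 18.9% of all tested genes. The Lefty genes, both inhibitors of Nodal, went opposite ways. Lefty1 fell from 258, 301 and 298 CPM to 51.9, 47.1, 126 and 111 CPM (-1.77, SE 0.23, adjusted p = 7.39e-05), and Lefty2 rose from 10.6, 16.3 and 17.4 CPM to 50.1, 43.4, 73.3 and 82.6 CPM (2.13, SE 0.17, adjusted p = 6.53e-09). Neither overlapped. Tgif1, a repressor of SMAD targets, rose (1.56). Without the 0h library of clone 4, 3 genes of the list rose and 2 fell.

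Genes of protein synthesis were lower. Of 85 cytosolic ribosomal protein genes 84 were tested, 65 fell, 5 rose and the median was -0.61. Rps12 stood at 136, 136, 161 and 128 CPM at 4h against 339, 349.9 and 342 CPM at 0h (-1.28, SE 0.11, adjusted p = 8.71e-09), and Rplp0 at 230.3, 251, 298 and 259 CPM against 501, 467 and 451 CPM (-0.85, SE 0.08, adjusted p = 1.20e-07). No 4h library of either reached a 0h library. Rpl28, Rpl29, Rps26 and the paralog Rpl39l were among the 5 that rose, and the rises were 2 without the 0h library of clone 4 and 3 without library 2 of clone 8 at 4h. The summed level was 8898 to 10274 CPM at 4h and 13621 to 13947 CPM at 0h. Transcripts of the list are short, with a median of 1076 bases against 3506 over tested protein-coding genes.

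The machinery around the ribosome fell by less. Ribosome biogenesis genes fell in 21 of 60 cases and rose in 6, with Mrto4 (-1.22), Nip7 (-0.93), Nhp2 (-0.72) and fibrillarin (Fbl, -0.39) lower and nucleolin (Ncl, -0.00) not passing. Of tRNA synthetases and translation factors 16 of 35 fell and 3 rose, with the elongation factor gene Eef1b2 (-1.15) and the synthetase genes Mars (-0.90), Yars (-0.88) and Lars (-0.58) lower. The 3 rises were in the translation factor genes Eif4g2, Eif5b and Pabpc1, and 5 rose without library 1 of clone 4 at 4h. Of 77 mitochondrial ribosomal protein genes tested, 25 fell and 5 rose, and without the 0h library of clone 4 the falls numbered 15. The rises were 3 without either 0h library of clone 8.

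Proteasome subunits fell in 24 of 31 cases, with none higher (median -0.45). Psma7, a subunit of the core particle, had 25.0, 27.2, 32.1 and 29.8 CPM at 4h against 71.8, 66.6 and 62.4 CPM at 0h (-1.23, SE 0.11, adjusted p = 2.67e-08). Psmd2 had 96.5, 86.4, 97.7 and 100.3 CPM against 132, 142 and 140.2 CPM (-0.53, SE 0.09, adjusted p = 0.000153), and Psmd4 fell by 0.64. In these genes the groups did not overlap. The falls were even across the libraries, with list medians of -0.61, -0.40, -0.37 and -0.53, and the median transcript length was 1819 bases.

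The integrated stress and unfolded protein response fell in 18 of 29 cases, with 1 higher (median -0.53). Atf4, its central transcription factor, fell from 99.3, 117 and 122 CPM to 61.1, 78.5, 90.8 and 81.8 CPM (-0.45, SE 0.12, adjusted p = 0.00361). Its targets fell further: Trib3 from 14.1, 19.3 and 17.0 CPM to 0, 1.48, 4.78 and 4.90 CPM (-2.61, SE 0.42, adjusted p = 0.000364), and Chac1 (-1.24), the serine synthesis genes Phgdh (-1.41) and Psat1 (-0.84), and Cebpb (-1.06). The endoplasmic reticulum genes Herpud1 (-1.38) and Hspa5 (BiP, -0.47) were lower, Asns (0.06) and Ddit3 (CHOP, -0.72) did not pass, and Xbp1 was the 1 rise (1.31). The median transcript length of the list was 2175 bases. Heat shock chaperones were mixed, 10 of 26 lower and 6 higher, with the chaperonin genes Tcp1 (-0.48), Cct4 (-0.56) and Cct5 (-0.45) lower and Hspb1 (1.25) and Hsph1 (0.41) higher.

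Respiratory chain genes of the nuclear and the mitochondrial genome went opposite ways. All 7 tested genes encoded by mitochondrial DNA (13 on the list) rose, and the sum over the whole list went from 2426 to 2904 CPM to 11636 to 18877 CPM. mt-Co1, a subunit of complex IV, had 4501, 5417, 3636 and 4934 CPM at 4h against 711, 722 and 794 CPM at 0h (2.59, SE 0.48, adjusted p = 0.00167). Of 74 subunits encoded in the nucleus, 32 fell and 6 rose (median -0.32), and the sum moved from 2492 to 2695 CPM to 2048 to 2374 CPM. Cox4i1 (-1.18), Ndufs4 (-1.09), Ndufb9 (-0.99) and Uqcrq (-0.78) were among the falls. Their median transcript length was 1094 bases. The 6 rises became 1 without library 2 of clone 8 at 0h, and 3 without library 1 of clone 8 at 0h, library 2 of clone 4 at 4h or library 1 of clone 8 at 4h.

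Cholesterol and fatty acid synthesis genes fell in 16 of 30 cases and rose in 4 (median -0.37). Mvd, an enzyme of the mevalonate pathway, fell from 63.5, 78.6 and 69.2 CPM to 18.9, 16.5, 33.0 and 24.1 CPM (-1.54, SE 0.16, adjusted p = 6.39e-07). Pmvk (-1.60), Srebf1 (-0.88) and Fasn (-0.58) were lower as well. Idi1 (0.57), Fdft1 (0.56), Dhcr7 (0.58) and Scd2 (0.46) rose, so the list held both directions.

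Of the glycolysis and hypoxia genes, 9 of 27 tested rose and 5 fell. The glucose transporter genes rose: Slc2a3 (GLUT3) from 27.4, 47.0 and 46.2 CPM to 154, 140.5, 191 and 221 CPM (2.24, SE 0.12, adjusted p = 2.96e-11) and Slc2a1 (GLUT1) from 51.8 to 71.8 CPM to 119.5 to 181 CPM (1.34, SE 0.10, adjusted p = 3.15e-09). Pfkp, the platelet form of phosphofructokinase, rose (2.03) and Pfkl, the liver form, fell (-0.76). Ldha, lactate dehydrogenase A, fell from 407, 349 and 331 CPM to 155 to 185 CPM (-1.16, SE 0.10, adjusted p = 1.82e-08). In the oxidative stress list 7 of 18 rose and 3 fell, with Nfe2l2 (NRF2, 0.74), Gpx4 (1.20) and Cat (0.75) higher and the cystine transporter gene Slc7a11 (-1.20) lower. Its rises numbered 4 without library 2 of clone 8 at 0h.

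Histone genes expressed in S phase were lower: 43 of 56 tested fell (67 on the list), none rose, and the median was -0.93. Hist2h4 had 14.7, 20.0, 29.6 and 25.6 CPM at 4h against 93.2, 81.7 and 82.0 CPM at 0h (-1.91, SE 0.17, adjusted p = 2.09e-07), and the linker histone gene Hist1h1c 74.5, 69.1, 132 and 109 CPM against 269.5, 261 and 224 CPM. The list's sum went from 3506 to 4084 CPM to 1519 to 2208 CPM with no overlap. The transcripts lack a poly(A) tail, are short, at a median of 556 bases, and include near-identical copies between which counts may be split.

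DNA replication genes fell in 23 of 49 cases with none higher, among them Rpa2 (-0.84), Gins2 (-0.84), Chaf1a (-0.70) and Ccne1 (-0.50). Pcna (-0.28) and Cdc6 (-0.32) were lower, and the helicase genes Mcm2 (-0.14) and Mcm5 (-0.22) did not pass. Without the 0h library of clone 4 the falls numbered 14. Mitosis genes were balanced, with 9 of 50 higher and 8 lower (Ube2c 0.82, Cdc20 -0.69), and the falls were 4 without the 0h library of clone 4 and 5 without either 4h library of clone 4. Their shares of 18% and 16% were near the 20.5% and 18.9% of all tested genes. Among the regulators of G1, Cdk6 fell (-1.46) and Ccnd2 (1.69) and Cdkn1c (p57, 1.14) rose. The log2 change of Ccnd2 in clone 8 minus that in clone 4 was -2.775, so its rise was mainly that of clone 4.

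Targets of p53 fell in 10 of 20 cases and rose in 3. The cell cycle inhibitor gene Cdkn1a (p21, -0.62), the p53 ligase gene Mdm2 (-0.63) and the death genes Bax (-0.69) and Bbc3 (PUMA, -1.17) were lower, while Pmaip1 (NOXA) rose from 15.1 to 26.0 CPM to 50.8 to 65.3 CPM (1.54, SE 0.13, adjusted p = 1.33e-08). The p53 gene Trp53 rose (0.79). Gadd45g, a growth arrest gene, went from 41.9, 27.9 and 30.2 CPM to 4.89, 4.69, 5.69 and 3.77 CPM (-2.79, SE 0.25, adjusted p = 7.55e-08). Of the apoptosis regulators 8 of 21 tested fell and 3 rose, or 1 when any single 0h library was left out, or without library 2 of either clone at 4h.

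Zfp-named zinc finger genes rose in 112 of 347 tested cases (400 on the list) and fell in 23, with a median of 0.31. Without the 0h library of clone 4, 77 rose and 14 fell. Their GC content is low, with a median of 43.7% against 49.97% over tested protein-coding genes. Zbtb and Zscan-type genes rose in 25 of 65 cases and fell in 2. Polycomb and histone modifier genes rose in 16 of 36 cases and fell in 4, with the PRC2 cofactor gene Jarid2 (1.03), the PRC1 genes Bmi1 (1.59) and Phc1 (0.77), and Kmt2c (1.04) higher, Kdm2b lower (-0.50) and Ezh2 (0.06) not passing. Genes of mRNA decay and the microRNA machinery rose in 14 of 34 cases and fell in 1, among them Drosha (0.41), Dicer1 (0.38) and Cnot2 (0.67). Transcripts of the polycomb and the decay list are long, with medians of 5416 and 5162 bases. The 4 polycomb falls were 0 without the 0h library of clone 4.

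Rmrp, the RNA of the RNase MRP complex, had 27.5, 15.8, 36.9 and 23.7 CPM at 4h against 232, 336 and 311 CPM at 0h (-3.50, SE 0.41, adjusted p = 9.22e-05), and Rpph1, the RNA of RNase P, 190.0, 486, 429 and 307 CPM against 2112, 1934 and 2095 CPM (-2.55, SE 0.43, adjusted p = 0.000927). Rprl3, a copy of the RNase P RNA, fell by 3.02. Genes that host small nucleolar RNAs fell in 7 of 14 tested cases and rose in 1, with Gas5 (-1.15), Zfas1 (-0.80), Snhg1 (-0.78) and Snhg5 (-0.77) lower. Among noncoding rises, Halr1, a lincRNA next to the Hoxa genes, was even across the clones, at 13.4, 19.3, 20.5 and 18.8 CPM against 0.267 to 0.363 CPM at 0h (5.91, SE 0.30, adjusted p = 1.24e-11). With a 0h level under 1 CPM it needed other groups to pass the filter, so its call is no measure of response.

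In the basement membrane and adhesion list, 9 of 25 rose and 11 fell. The tight junction genes Cldn6 (chr17:23679249-23682446) and Cldn7 fell, Cldn6 from 30.3, 28.7 and 32.5 CPM to 5.50, 5.68, 1.59 and 1.13 CPM (-3.29, SE 0.30, adjusted p = 1.47e-06) and Cldn7 from 14.7 to 15.6 CPM to 1.22, 3.21, 0.911 and 1.51 CPM (-3.17, SE 0.23, adjusted p = 1.93e-09). Both stood near the floor of the 4h libraries. Ocln (-1.70), the E-cadherin gene Cdh1 (-0.81) and Epcam (-0.67) fell, and the splicing factor gene Esrp2, an epithelial regulator, fell by 2.30. The matrix genes Nid1 (2.21), Nid2 (1.38) and Fn1 (1.84), the intermediate filament gene Vim (2.37) and the N-cadherin gene Cdh2 (1.39) rose, while Col4a1 fell.

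SRF and actin genes showed no common direction, with 5 of 23 tested higher and 7 lower, and medians of 0.51 and 0.48 in clone 4 and -0.67 and -0.57 in clone 8. The shares were 21.7% higher and 30.4% lower, against 20.5% and 18.9% of all tested genes. Actb rose (0.48) and Amotl2 fell (-1.40). The 5 rises were 3 without the 0h library of clone 4 or library 2 of clone 8 at 0h. The 7 falls were 2 and 3 without libraries 1 and 2 of clone 8 at 4h, and 4 without library 2 of clone 8 at 0h. Antigen presentation genes were lower: H2-K1 fell from 28.0, 24.1 and 22.3 CPM to 6.79 to 9.87 CPM (-1.63, SE 0.14, adjusted p = 1.48e-08), and H2-D1 and Tap1 (-2.04) fell too. Their regulator gene Nlrc5 had 1 count at 4h against 95 at 0h, a pooled level 29.0-fold lower with a counting interval of 5.08 to 1157-fold. In that list 6 of 14 tested fell and 2 rose.

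The largest falls with more than 3 counts in every 4h library also held Dll1, a Notch ligand gene (-2.28), Enpp2, which encodes autotaxin (-2.50), the kinesin gene Kif1a (-2.45) and the actin-bundling gene Espn (-2.27). At the floor, Rbbp8nl had 3.67, 3.81 and 2.54 CPM at 0h and 1 count at 4h, 44.5-fold lower with a counting interval of 7.87 to 1771-fold. H2-Bl, Moxd1 and Pou4f3, each with 2 counts at 4h, were 16.9 to 17.7-fold lower over the pooled libraries. Among the largest rises, the Wnt-responsive matricellular gene Ccn4 (5.14) and the potassium channel gene Kcna1 (5.10) lay above all 0h libraries in both clones. Both were under 1 CPM at 0h and needed other groups to pass the filter, so their calls are no measure of response.

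Leaving out 1 library could drop genes at the filter. Without library 2 of clone 4 at 4h, the tested members of the 2-cell-like list went from 7 to 5. Of 268 genes named here as called, 233 kept their call in every such run that tested them. None changed direction under any other alternative run that tested it. Total-count scaling shifts all genes about alike, so read relative to the median gene it could hardly change a direction and is no support. On its own scale, 3017 of the 5300 called genes kept their call and direction under it. A gene dropped at the filter was not counted as having lost its call. Without the 0h library of clone 4, 26 lost it: Bmp4, Ccnd1, Ccnd2, Cdc6, Cdh2, Eif4g2, Elk1, Elk3, Fos, Idi1, Ivl, Junb, Kdm2b, Lin28a, Map2k2, Nefm, Nodal, Nr4a1, Pcna, Pou3f1, Rpl28, Rpl29, Rpl39l, Spry1, Tubb3 and Vgf. Car14, Cdkn1a, Cic, Cish, Dkk1, Elf3, Hspa5, Lamb1 and Lrig1 lost it without 1 of the other libraries, with adjusted p of 0.0521 (Cdkn1a, without library 1 of clone 8 at 0h) to 0.465 (Dkk1, without library 2 of clone 4 at 4h). Exon positions shared with another gene affect 98 of the 289 genes named, among them Pou5f1, Rps12, Sox1, Otx2, Tet2, Dusp5, Nab2, Rrad, Phlda1, Rmrp and Rpph1, and their counts are uncertain to that extent, since the handling of strand is not given in the sources used here.

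In 520 of 13451 genes (3.87%) the log2 change differed between clones (edgeR interaction contrast). It was the more positive one in clone 8 in 176 genes (1.31%) and in clone 4 in 344 (2.56%), whether the gene rose or fell. Ptprn, a secretory granule gene, had 76.4 and 72.6 CPM at 4h and 5.94 CPM at 0h in clone 4, against 7.06 and 6.03 CPM at 4h and 7.15 and 9.21 CPM at 0h in clone 8. The integrin gene Itga3 had 166 and 135 CPM against 26.2 CPM in clone 4 and 16.2 and 17.0 CPM against 30.5 and 29.2 CPM in clone 8, so it went up in 1 clone and down in the other. Nefm, a neurofilament gene, had 133 and 122 CPM in clone 4 and 6.15 and 7.54 CPM in clone 8 at 4h, against 3.51 to 5.67 CPM at 0h. Clone 4 has 1 library at 0h, so its own change rests on that library, and without it the test between clones could not be fitted.

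**Figure D5:**
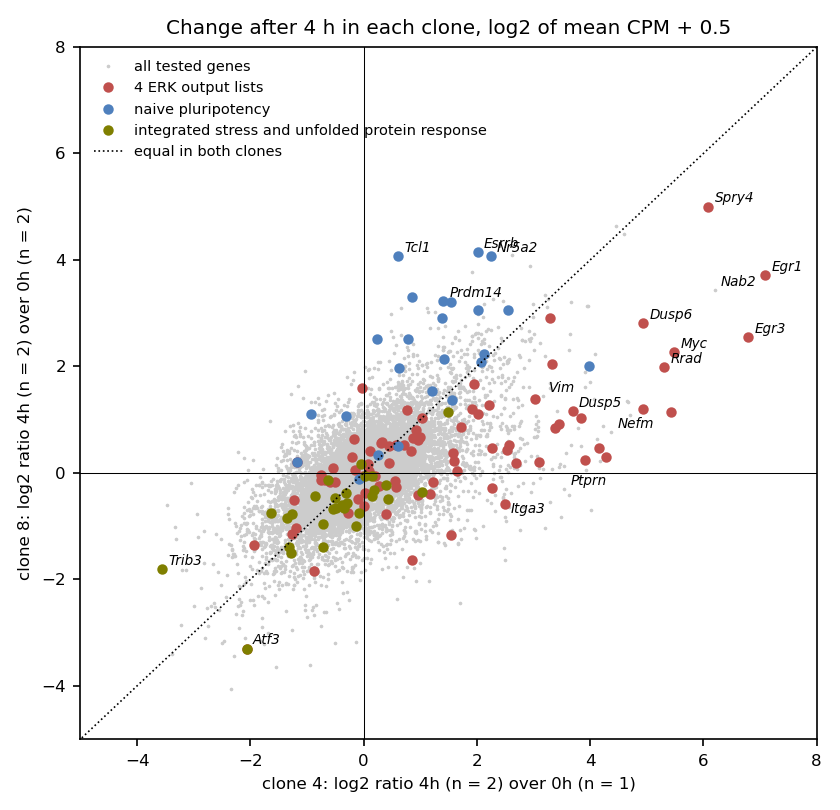
Each gene's log2 ratio of mean CPM + 0.5 at 4h over 0h in clone 4 (x axis) and clone 8 (y axis), with all tested genes in grey, the 4 ERK output lists in red, naive pluripotency in blue and the integrated stress and unfolded protein response in olive; the dotted line marks equal change. ERK output genes such as Egr1, Myc and Dusp6 lie below the line, naive genes such as Esrrb, Tcl1 and Prdm14 above it, and Trib3 and Atf3 are lower in both clones.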

How the data were processed

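RNA-seq read counts per gene of 15 libraries (4 groups, 2 clones) were analysed as deposited, of which 7 enter the comparison. Values are raw counts per Ensembl gene in the deposited table. STAR 2.5.3a, bcl2fastq 2.19.1 and the mm10 build are named per the submitters' processing notes; the counter, its annotation and its use of strand are not given in the sources used here. Gene names, biotypes, lengths and coordinates came from GENCODE M21 (GRCm38), which matched 52489 of 52636 identifiers, and promoters from RefSeq (GRCm38.p6).

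Counts were filtered with filterByExpr (minimum count 10, total 15), scaled by TMM and fitted over all 15 libraries with group and clone by edgeR 4.0.16 (quasi-likelihood, R 4.3.3), with Benjamini-Hochberg adjustment over all 13451 tested genes and a threshold of 0.05. The fit of the difference between clones added a group by clone interaction. Alternatives used limma 3.58.1, DESeq2 1.42.0 and Python 3.11.15. On simulated counts, 181 of 200 genes changed by 2 on the log2 scale were found with 10 false calls among 12896 tested genes in the comparison of 4h with 0h, and 120 of 200 with 4 false calls among 12899 for the difference between clones.

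Total counts were 9226145 to 13004556 at 0h and 1552022 to 6658950 at 4h. Libraries of a group differed beyond counting noise (chi-square per degree of freedom 6.21 to 180), so none was merged. Library numbers did not pair libraries beyond the clone: the differences between library 1 and 2 correlated across groups at -0.22 to 0.30, and at 0.02 between 0h and 4h in clone 8. Genes with no count in a group are given as bounds against 3 counts over the group, and genes with 1 to 3 counts as a pooled ratio with an exact 95% interval, which covers counting error only.

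The members and gene lists (63) were chosen with earlier results of these data known. Genes are named by rule: the 12 largest rises and 12 largest falls with a mean of at least 1 CPM and more than 3 counts in every 4h library, changed one way in both clones; the 5 largest falls at the floor; the 4 smallest adjusted p in each list; and the 5 smallest in the test between clones. Further list members were named for their role after their values were seen.
Some genes of the lists are counted in them but are not reported here by name.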

Additional observations from a re-analysis of the deposited data

Results flagged for a closer look

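In 4 libraries of 4h, 1 library stood apart from the other 3 in CPM for 4 genes with counts in 1 library alone, Rbbp8nl, Dusp8, Nlrc5 and H2-Bl, where the gap to the nearest library divided by the range was 1. The same ratio, for genes past the 95% critical value of Dixon's test, was Bmi1 0.961, Phgdh 0.867, Pfkl 0.836, Rps26 0.865, Socs3 0.886, Ndufb9 0.882, Cdkn1a 0.940, H2-D1 0.929 and Tgif1 0.861. For the summed level of the mRNA decay and microRNA list it was 0.876. The test was made over 289 genes, and chance alone gives about 1 such group in 20.

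For 55 genes named in the report, the change from 0h to 4h differed between the clones by the edgeR test of that difference. Values are the log2 change in clone 8 minus that in clone 4. Among genes of ERK output and Nab2 and Rps6ka3, which belong to none of those lists, they were Mcl1 0.72, Spry4 -1.02, Spry2 -1.32, Spred1 -0.92, Spred3 -0.94, Dusp4 -2.59, Dusp5 -2.53, Dusp6 -2.24, Egr1 -3.68, Egr2 -3.25, Fos -3.47, Fosl1 -3.40, Jun -2.71, Junb -3.83, Arc -1.67, Klf10 -1.84, Nab2 -2.97, Myc -3.40, Maff -2.34, Bhlhe40 -2.62, Phlda1 -4.35, Plaur -4.91, Rrad -3.90, Vgf -3.83, Trib1 -1.39 and Rps6ka3 -1.31, below 0 in all of these but Mcl1. Among naive pluripotency genes they were Esrrb 2.18, Nanog 2.30, Tcl1 5.43, Dppa3 2.30, Nr0b1 2.62 and Klf5 -2.05, so Klf5 is the 1 below 0. For the others they were Ptprn -3.95, Kif1a -2.17, Vim -1.73, Nes -1.22, Jak1 -1.46, Cdk6 1.37, Ccnd2 -2.77, Bbc3 1.25, Bax 0.98, Cdh1 -0.62, Lgr5 -4.29, Itga3 -3.36, Lamb1 -0.90, Nefm -3.67, Krt8 -2.19, Krt18 -3.27, Dll1 1.36, Cldn6 -1.999, Pim1 -1.10, Epcam -0.80, Cdh2 -2.54, Jak2 -2.19 and Tcf7l2 -1.28. Clone 4 has 1 library at 0h, so each of these differences rests in part on that library.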

How the results depend on the processing

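Of 5300 called genes (2755 higher, 2545 lower), thinning every library to the depth of the shallowest left 2504 (1276 higher, 1228 lower), of which 2408 were the same genes in the same direction. Scaling by total count gave 476 higher and 6220 lower, and no filter gave 2226 higher and 3215 lower, against 2755 and 2545. Other settings stayed within 1.5 times. Leaving out 1 library gave 3847 to 5186 called, 2036 to 2756 higher and 1811 to 2545 lower, with the lowest counts without the 0h library of clone 4. The difference between clones fell from 520 genes to 91 with total-count scaling and 187 with thinning, and was 311 without library 1 and 321 without library 2 of clone 8 at 0h, within a range of 311 to 547 when 1 library was left out. With the replicate block (clone and library number, which did not pair the libraries beyond the clone), 4902 genes were called, 2541 higher and 2361 lower, and 7 of the named genes lost their call: Ccnd2, Cdh2, Dkk1, Elk1, Elk3, Junb and Pou3f1. Thinning left 8836 genes tested and ended the call of 25 named genes among them. Named genes that it dropped at the filter are not in that count. The naive pluripotency list went from 24 tested members to 15 and from 18 called higher to 10. Neuroectoderm markers went from 14 tested to 7 and from 8 called higher to 1, and no 2-cell-like member was tested. The sign of the median was kept in 43 of 63 lists in all alternatives that tested them. The cause of these moves was not tested beyond the construction of each setting. Depth limits falls of genes near 3 counts at 4h.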
